A study of Mus musculus with 7 samples.

Results

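Cholecystokinin (CCK) is a neuropeptide that marks one of the main classes of basket cell, the GABAergic interneurons whose axons wrap the cell bodies of excitatory projection neurons. CCK basket cells arise largely in the caudal ganglionic eminence (CGE), carry the cannabinoid receptor CB1 on their terminals, and in part express VGLUT3, a vesicular glutamate transporter, next to their GABA machinery. CCK is made as a larger precursor that is cut, amidated and sulfated before release, and it acts on a pair of G protein-coupled receptors. Many cortical projection neurons also transcribe the peptide gene. The genes described here are the peptide gene *Cck*, its receptor genes *Cckbr* (the receptor that predominates in brain) and *Cckar* (the receptor best known from gut and pancreas), and *Slc17a8*, which encodes VGLUT3. They were taken by symbol, and all 4 were found among the 47729 genes of the count table.

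RNA was sequenced from forebrains of F1(C57BL/6 X 129Sv) mice at postnatal day 15, without treatment. Control mice were *Lhx6*+/- and mutant mice *Lhx6*-/-, both for the germline null allele Lhx6tm2Vpa, so the controls also carried 1 copy of it. *Lhx6* encodes a LIM homeodomain factor of interneurons from the medial ganglionic eminence (MGE), and the comparison addresses how forebrain RNA differs when functional LHX6 is missing. There were 4 control and 3 mutant libraries, each made from a pool of 2 animals, so errors given here are between pools. Values by library are given in the order of control libraries 2, 3, 10 and 11, then mutant libraries 5, 12 and 13, as counts scaled to a common library size (normalized counts).

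Library totals ran from 32556304 to 38069151 expected counts. *Lhx6* itself had between 476 and 615 normalized counts in the control libraries and between 70.1 and 76.6 in the mutants. The first principal component, with 39.6% of the variance, separated libraries 2, 3 and 5 from libraries 10 to 13, and both of these runs of library numbers held both genotypes. The columns of the table name a genotype and a library number, so the sex and RNA quality recorded for each pool could not be tied to a library. Forebrain markers were present (*Emx1* at 482 to 1005 and *Dlx5* at 111 to 193 normalized counts over all libraries), while *Hoxa5*, *Hoxb4*, *Hoxb5* and *Hoxc4* of the hindbrain together reached at most 7.03. In whole forebrain, fewer cells of a type and less RNA per cell cannot be told apart.

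The upstream sequences of the 3 genes that entered the test are shown first. Whether what they hold bears on the RNA levels was not tested. Each window runs from 250 bases before to 50 bases after the RefSeq transcript start on build GRCm38.p6, in the direction of transcription. Capitals mark matches, on either strand, to any of a few short motifs, which do not overlap one another in the windows shown. The E-box was searched as CACGTG, which 7.15% of all 32851 promoter windows of this length held. The GC box was searched as GGGCGG and was found in 35.7% of all windows. The full cyclic AMP response element was searched by the letters TGACGTCA, present in 1.79% of windows. A variant of that element was searched by the letters TGCGTCA, present in 2.12% of windows. The AP-1 site was searched by the letters TGACTCA, which 5.2% of promoter windows held. A run like the TATA box was searched by the letters TATTTAA, which 4.51% of promoter windows held.
*Cck*, chr9:121495645-121495944, minus strand: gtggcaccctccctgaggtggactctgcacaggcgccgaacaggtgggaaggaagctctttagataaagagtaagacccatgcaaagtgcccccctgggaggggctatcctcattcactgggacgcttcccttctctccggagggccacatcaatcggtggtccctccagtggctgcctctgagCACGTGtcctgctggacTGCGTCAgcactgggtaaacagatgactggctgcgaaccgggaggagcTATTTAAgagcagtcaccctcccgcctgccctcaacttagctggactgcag
*Cckbr*, chr7:105425481-105425780, plus strand: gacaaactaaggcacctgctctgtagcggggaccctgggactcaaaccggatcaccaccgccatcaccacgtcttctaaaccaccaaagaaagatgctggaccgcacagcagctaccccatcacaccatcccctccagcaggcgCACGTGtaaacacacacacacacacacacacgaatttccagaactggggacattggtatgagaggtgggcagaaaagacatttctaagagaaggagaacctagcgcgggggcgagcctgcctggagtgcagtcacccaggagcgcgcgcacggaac
*Slc17a8*, chr10:89621200-89621499, minus strand: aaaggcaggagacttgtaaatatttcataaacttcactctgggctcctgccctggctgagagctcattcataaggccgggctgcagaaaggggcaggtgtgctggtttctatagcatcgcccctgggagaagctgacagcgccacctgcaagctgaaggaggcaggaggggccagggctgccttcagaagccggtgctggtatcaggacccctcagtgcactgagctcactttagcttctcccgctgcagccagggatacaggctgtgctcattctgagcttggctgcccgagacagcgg

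The *Cck* window held an E-box at bases -66 to -61 from the annotated start and the variant element at -49 to -43, and its TATA-like run began at base -1. The *Cckbr* window held 1 E-box, at -106 to -101. None of the searched letters occurred in the *Slc17a8* window, nor in that of its other RefSeq start. The motifs were chosen with the *Cck* sequence in view, and a match describes letters in the reference and not binding in these samples.

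*Cck* was higher in every mutant library than in any control library. Its normalized counts were 7561, 7722, 7306 and 7455 in the controls against 13393, 14110 and 13556 in the mutants. Both groups were tight, and a wide gap lay between the highest control and the lowest mutant value. The mean rose from 7511 ± 175 (SD, n = 4 pools) to 13686 ± 376 (SD, n = 3 pools), a 1.82-fold increase with a 95% interval of 1.63 to 2.04. This is 0.87 on the log2 scale, with a standard error of 0.071 and a Benjamini-Hochberg adjusted p of 0.000641 by the quasi-likelihood test of edgeR. For background, 954 of 19684 tested genes (4.85%) differed between genotypes at an adjusted p of 0.05 or less, and 2.97% of all tested genes were higher and 1.87% lower in mutants. *Cck* was 1 of the 3 tested members and the only one called. Non-overlapping genotypes with the mutants higher were seen for 10.7% of all tested genes.

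The spread of *Cck* between libraries was small. Its coefficient of variation was 2.34% among controls and 2.74% among mutants, against medians of 10.3% and 7.11% over the 6730 genes with a mean of 1000 or more normalized counts. By p-value *Cck* ranked 27th among all tested genes, and by fold change it ranked 315th among the 585 genes called higher. Within libraries 2, 3 and 5 the log2 ratio of means was 0.81, and within libraries 10 to 13 it was 0.91. *Cck* was called in all 16 alternative fits, with changes between 0.84 and 0.92 on the log2 scale and adjusted p-values from 1.27e-34 to 0.00554. The gene (ENSMUSG00000032532, minus strand of chromosome 9, 121489825 to 121495689 on GRCm38) has 685 exonic bases. No other gene overlaps them, and 0% of its 36-base words, the length of a read, were found in any other gene.

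**Figure D1:**
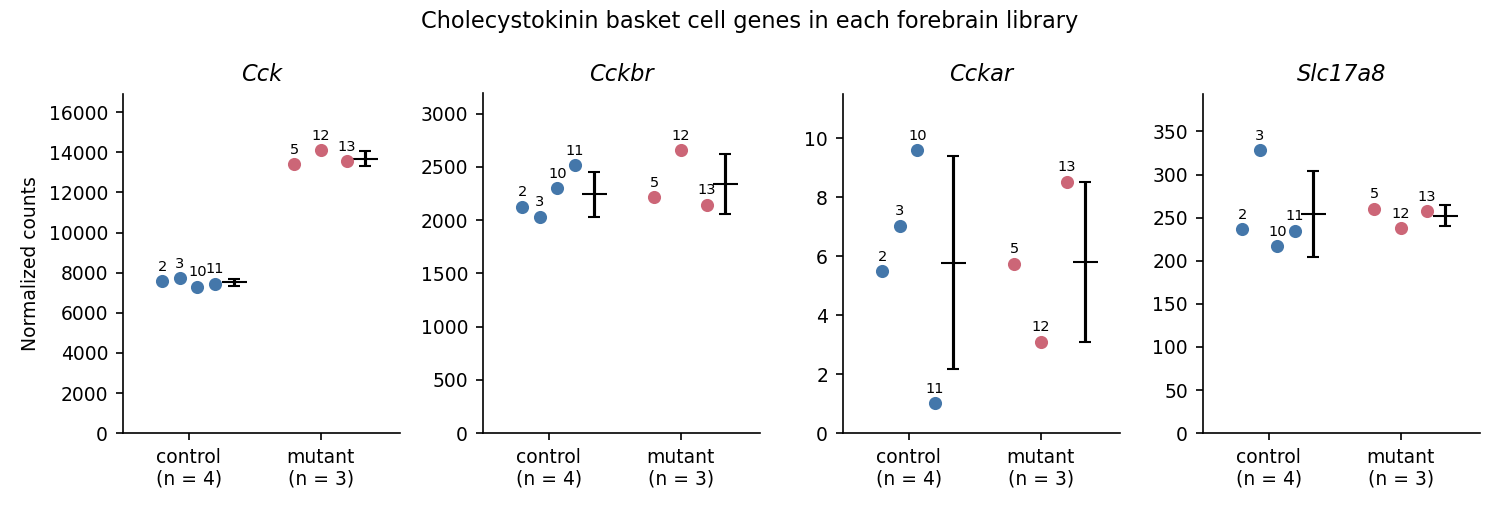
Normalized counts of *Cck*, *Cckbr*, *Cckar* and *Slc17a8* in each library, with the library number over each point; bars are mean ± SD of 4 control and 3 mutant pools, and each panel has its own axis from 0. Mutant libraries sit between 13393 and 14110 for *Cck* and above all controls, while the genotypes overlap for the other 3 genes.

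*Cckbr* (ENSMUSG00000030898, plus strand of chromosome 7, 105425817 to 105470898) encodes the receptor that binds both CCK and gastrin. Its normalized counts were 2128, 2033, 2298 and 2517 in the controls and 2217, 2658 and 2146 in the mutants. The genotypes overlapped, with mutant library 12 the highest of all 7 and control library 3 the lowest. Means were 2244 ± 212 in controls and 2340 ± 278 in mutants (SD, n = 4 and 3 pools), a log2 difference of 0.061 (standard error 0.11, adjusted p = 0.837 from edgeR). The 95% interval ran from -0.18 to 0.30, or 0.882-fold to 1.23-fold, so a change of the size seen for *Cck* lay outside it. Without mutant library 12 the log2 difference was -0.040.

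*Cckar* (ENSMUSG00000029193, minus strand of chromosome 5, 53697776 to 53707705) was near the limit of detection. The control libraries held 5, 7, 10 and 1 unscaled counts of it and the mutant libraries 6, 3 and 9. The groups overlapped over nearly their whole range, and 1 of 7 libraries reached the 10 counts that the filter asked for in at least 3. *Cckar* was therefore not tested with the other genes. In a fit with no filter its log2 difference was 0.0067 (adjusted p = 0.997 from edgeR), at counts where a difference was not detectable at this depth.

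*Slc17a8* (ENSMUSG00000019935, minus strand of chromosome 10, 89574020 to 89621253) encodes VGLUT3, which besides CCK basket cells is found in striatal cholinergic interneurons and in serotonergic neurons. The controls held 237, 328, 217 and 235 normalized counts of it and the mutants 261, 238 and 258. All mutant values lay inside the range of the controls, which was wide because of control library 3. Means were 254 ± 50.3 and 252 ± 12.2 (SD, n = 4 and 3 pools), a log2 difference of -0.012 (standard error 0.16, adjusted p = 0.982 from edgeR). The 95% interval, -0.37 to 0.35 or 0.772-fold to 1.27-fold, was wider than that of *Cckbr* but also left out a change as large as that of *Cck*. Without control library 3 the log2 difference was 0.14 (adjusted p = 0.58), and the sign changed in 6 of 16 alternative fits, none of which called the gene. Another gene held 2.79% of its read-length words.

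**Figure D2:**
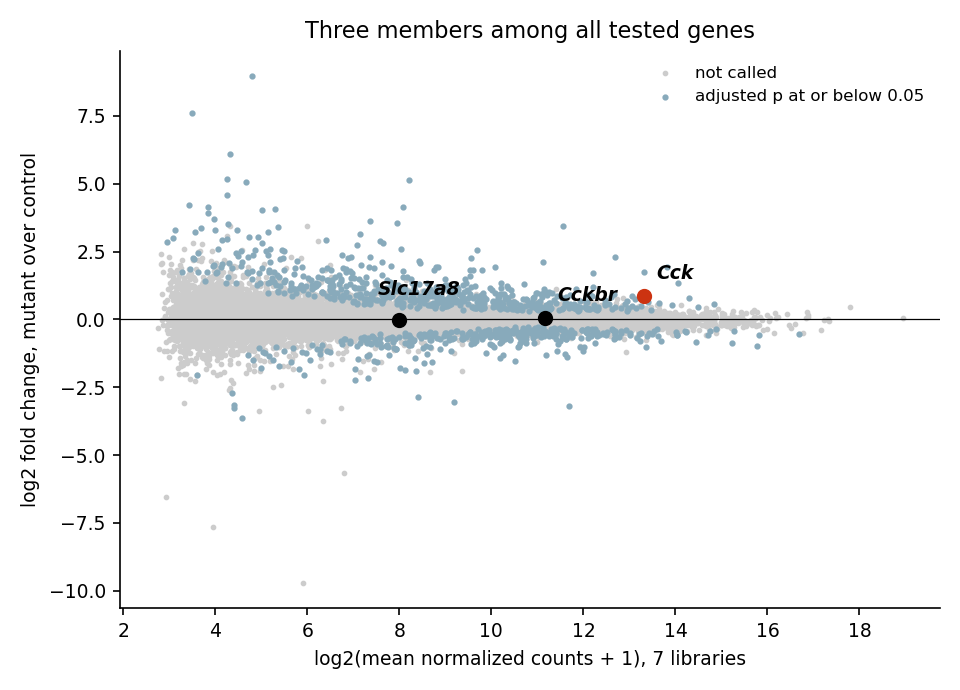
Log2 fold change of mutant over control against log2 mean normalized counts (plus 1) for the 19684 tested genes, each a point, with the 954 called genes darker. *Cck* lies at 0.87 among called genes, and *Cckbr* and *Slc17a8* lie near 0; *Cckar* did not pass the filter and is not drawn.

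Per kilobase of exon, the 4 genes stood far apart in level. *Cck* had 10965 ± 256 normalized counts per kb in controls and 19980 ± 548 in mutants, which placed its mean over all libraries at rank 62 of 19684 tested genes. *Cckbr* followed with 808 ± 76.5 and 843 ± 99.99 per kb (rank 2400), then *Slc17a8* with 53.9 ± 10.6 and 53.4 ± 2.59 (rank 12499), and *Cckar* with 1.57 ± 0.978 and 1.57 ± 0.736. No 2 neighbours in this order overlapped in any library. Among the vesicular glutamate transporters, *Slc17a7* (VGLUT1, of cortical projection neurons) had 23120 ± 1543 normalized counts per kb in controls and *Slc17a6* (VGLUT2, of thalamic and other subcortical neurons) had 175 ± 35.9. *Slc17a8* made up between 0.199% and 0.324% of the summed per-kb level of the 3 transporters in control libraries and between 0.163% and 0.216% in mutant libraries.

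*Cck* was next set against other genes within each library, a measure that does not depend on the scaling of libraries. *Cck* over *Cckbr*, peptide against receptor per kb, was 14.4, 15.4, 12.9 and 12.01 in the controls and 24.5, 21.5 and 25.6 in the mutants. The log2 difference between genotypes was 0.81 (exact permutation test over libraries, two-sided, p = 0.0571, the smallest that 4 against 3 libraries allow). *Cck* over *Slc17a7* was 0.442 to 0.530 in controls and 0.672 to 0.791 in mutants, a log2 difference of 0.62 (exact permutation p = 0.0571). So *Cck* was also higher in every mutant library when measured against a gene of the projection neurons. *Cck* over *Gad1*, the gene of a GABA-synthesising enzyme, overlapped between genotypes at 8.82 to 12.5 and 12.1 to 15.6, and its log2 difference of 0.37 had an exact permutation p of 0.114. *Slc17a8* over *Slc17a7* differed by -0.24 on the log2 scale (exact permutation p = 0.514). Adjusted over these 4 ratios by the Benjamini-Hochberg method, the p-values were 0.114, 0.114, 0.152 and 0.514, and this design could not reach 0.05. The ratios were chosen with these data in view.

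**Figure D3:**
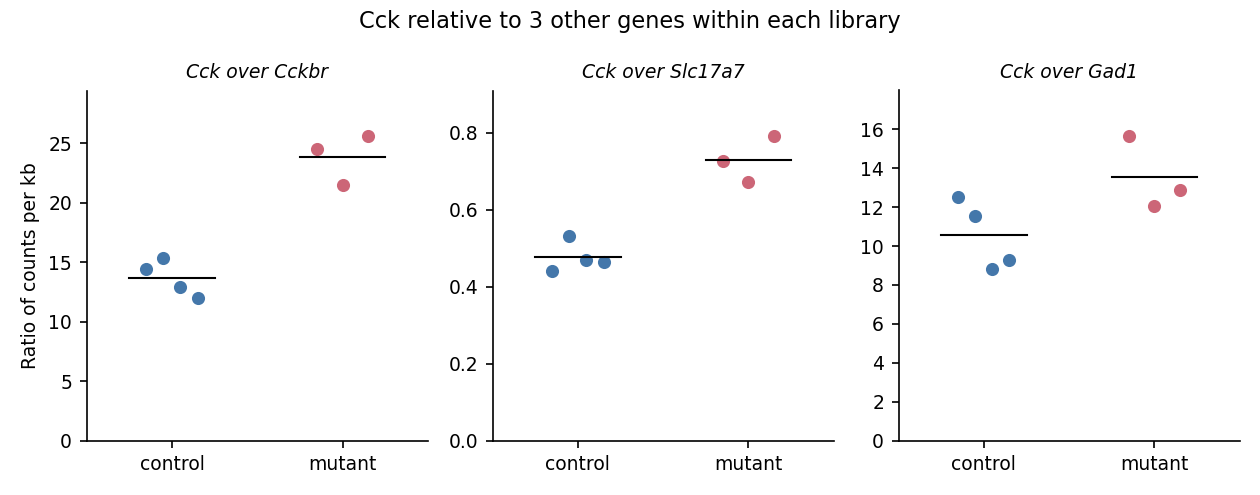
Ratio of normalized counts per kb of *Cck* to *Cckbr*, *Slc17a7* and *Gad1* in each library (points), with the mean of each genotype as a line and axes from 0. The 3 mutant libraries lie above the 4 controls for *Cck* over *Cckbr* (21.5 to 25.6 against 12.01 to 15.4) and *Cck* over *Slc17a7*, and reach into the control range for *Cck* over *Gad1*.

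Markers of cells that transcribe these genes were examined beside them. For comparison, 2.97% of all tested genes were called higher and 1.87% lower. Of 10 cortical excitatory neuron markers, 1 was called higher and 1 lower, the latter being *Rorb* (-0.47 on the log2 scale), with a median of -0.10 against -0.013 over all tested genes. Their summed level was 183828 to 236811 normalized counts in controls and 181504 to 209522 in mutants. Most of this sum was *Camk2a* and *Slc17a7*, whose log2 differences had opposite signs. *Camk2a* had means of 128237 in controls and 91020 in mutants (log2 difference -0.49, adjusted p = 0.0743 from edgeR). Means of *Slc17a7* were 67951 and 80946. *Slc17a7* itself had a log2 difference of 0.25 (adjusted p = 0.203). Of 4 GABAergic markers, none was called higher and 1 was called lower, and *Gad1* and *Gad2* had differences of 0.50 and 0.48 (adjusted p = 0.0951 and 0.0862). Of 4 MGE interneuron markers, 3 fell, *Lhx6*, *Sst* and *Pvalb*, with log2 changes of -2.88, -3.19 and -3.05. CCK is also found in midbrain dopamine neurons, and of 4 of their markers 1 was called. This was *Th*, the gene of tyrosine hydroxylase, which other neurons express too, and it rose by 2.83 on the log2 scale (from 42.8 to 62.0 normalized counts in controls to 292 to 495 in mutants, adjusted p = 0.00044). The other 3 markers had low counts, and *Pitx3* and *En1* did not pass the filter. *Slc6a3* reached at most 24 counts in a library (log2 difference 0.87, adjusted p = 0.414), *Pitx3* reached at most 4, and *En1* had 37 in control library 10 and at most 5 elsewhere. The sum of the 4, 57.0 to 95.9 in controls and 320.0 to 505 in mutants, was mostly *Th*. The part of these cell types in the *Cck* result was not tested.

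For *Slc17a8*, the 5 cholinergic markers, among them *Chat*, summed to 252 to 446 normalized counts in controls and 238 to 512 in mutants, and none was called. Of the 4 serotonergic markers, *Tph2*, of serotonin synthesis, had a log2 difference of 0.78 (adjusted p = 0.0837), *Slc6a4* and *Fev* reached at most 7 and 2 counts, and none was called. These 4 summed to 179 to 293 normalized counts in controls and 325 to 421 in mutants. Most of the sum was *Slc18a2*, with means of 191 in controls and 251 in mutants. Its genotypes overlapped (log2 difference 0.39, adjusted p = 0.446 from edgeR). None of the 5 tested thalamic and the 3 tested hypothalamic markers was called by edgeR either, and the hypothalamic sums overlapped (62.4 to 92.1 and 67.2 to 102). The part of these cells in the *Slc17a8* level was not tested.

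Some other markers of CCK basket cells were also higher in mutants. Of a list of 10, all tested, 3 rose (*Cnr1*, *Vip* and *Adarb2*), 1 fell (*Erbb4*) and 6 did not pass the test, and the median log2 change was 0.22 against -0.013 over all tested genes. The shares of all tested genes called were 2.97% higher and 1.87% lower. Genotypes did not overlap, in either direction, for 7 of the 10, against 19.7% of all tested genes. Mutants lay above controls for *Cnr1*, *Sncg*, *Htr3a*, *Vip* and *Adarb2*, and below them for *Erbb4* and *Npas1*. Of the 10 log2 changes, 6 were positive and 4 negative. *Cnr1*, the gene of the CB1 receptor, stood at 5474, 5370, 7189 and 6997 normalized counts in the controls against 9421, 12816 and 11956 in the mutants. It rose 1.82-fold (log2 0.87, standard error 0.15, adjusted p = 0.0133 from edgeR), close in size to *Cck* but with a wider spread. *Vip*, which encodes vasoactive intestinal peptide and marks a further CGE class that includes small CCK basket cells, rose by 0.94 on the log2 scale, and *Adarb2*, an RNA-editing enzyme family gene of CGE interneurons, by 0.63. *Erbb4*, the neuregulin receptor gene, which parvalbumin basket cells express too, fell by 0.70 on the log2 scale (adjusted p = 0.0485). Among those not called, *Sncg*, the gamma-synuclein gene that marks CCK basket cells in cortex, had 24.7 ± 4.76 normalized counts in controls and 39.1 ± 1.74 in mutants (SD, n = 4 and 3 pools, adjusted p = 0.186 from edgeR). *Htr3a*, the ionotropic serotonin receptor gene, had a log2 difference of 0.37 (adjusted p = 0.245), and *Cxcl14*, *Prox1*, *Npas1* and *Chrm3* lay between -0.41 and 0.063. *Chrm3* was called lower in 2 of 16 alternative fits, with the run of library numbers as covariate and in libraries 10 to 13 alone. The calls of *Cnr1*, *Vip* and *Adarb2* held in 14 of 16 alternative fits and were lost without mutant library 12 and without mutant library 13 (largest adjusted p 0.0722, 0.0804 and 0.0554). The call of *Erbb4* held in 8 of 16 and was lost with limma-voom, with upper quartile normalization and without any 1 of control libraries 2, 10 and 11 and mutant libraries 5, 12 and 13 (largest adjusted p 0.176). All 4 genes kept their direction in the 16 fits.

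Of 10 listed genes that process the CCK precursor or its like, 2 rose, *Pcsk1* and *Pam*, and none fell, with a median log2 change of 0.0069. Among all tested genes, 2.97% were called higher and 1.87% lower. *Pcsk1*, the prohormone convertase 1 gene, stood at 637, 620, 787 and 731 normalized counts in the controls against 1193, 1274 and 1185 in the mutants. It rose 1.75-fold (log2 0.81, standard error 0.10, adjusted p = 0.00424 from edgeR), and the genotypes were well apart. *Pam*, whose enzyme amidates the carboxyl end of peptides including CCK, had 6394 ± 215 normalized counts in controls and 9383 ± 258 in mutants (SD, n = 4 and 3 pools), a 1.47-fold rise with an adjusted p of 0.00466 from edgeR, and 188 of its 11892 exonic bases are shared with another gene on its strand. Both were called in all 16 alternative fits. *Pcsk2*, of prohormone convertase 2, had a log2 difference of -0.31 (adjusted p = 0.155), and *Pcsk1n*, which encodes the convertase inhibitor proSAAS, one of -0.37 (adjusted p = 0.197). The tyrosine sulfation genes *Tpst1* and *Tpst2* had differences of -0.17 and 0.41 (adjusted p = 0.284 and 0.0917). *Cpe*, *Pcsk5*, *Scg5* and *Ctsl* lay between -0.12 and 0.18, and 27.5% of the words of *Ctsl* occur in another gene. With library run as a covariate, 4 of the 10 were called, 3 higher and 1 lower. That fit also called more genes in all, 2205 of 19684 (1213 higher and 992 lower), against 954 in the reported fit.

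**Figure D4:**
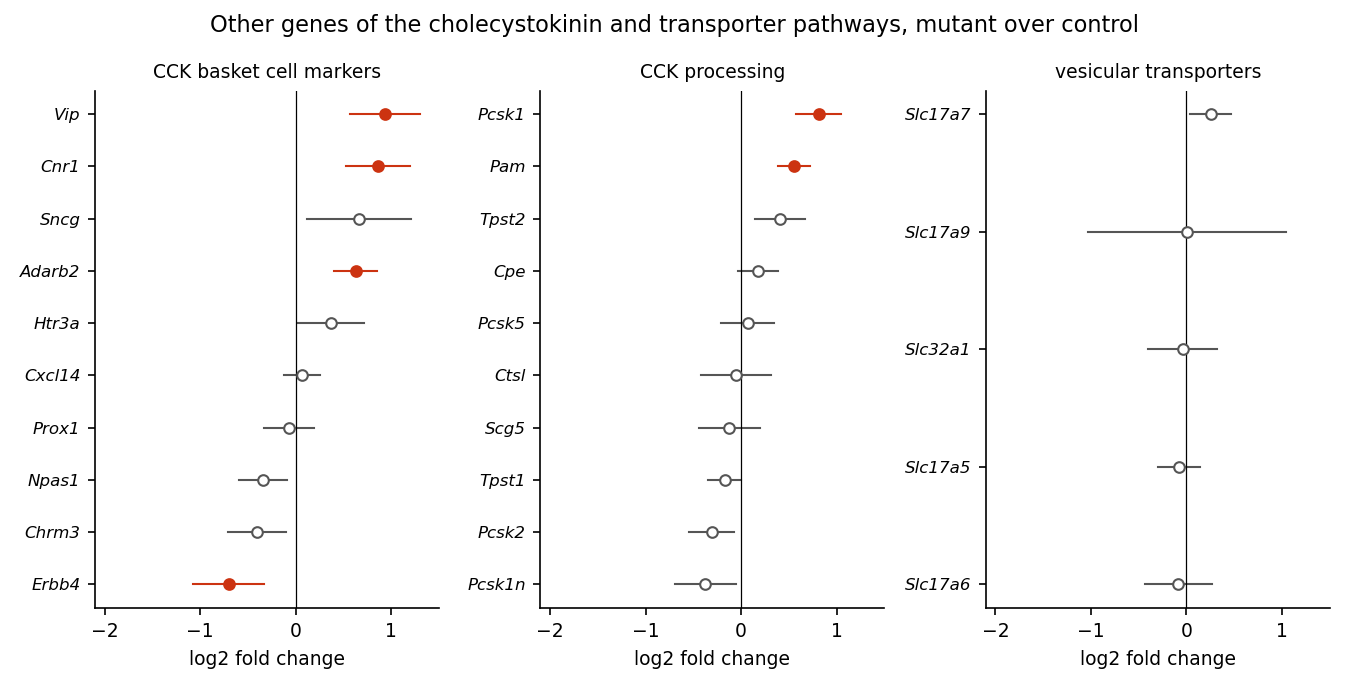
Log2 fold change of mutant over control (points) with 95% intervals (lines) for the tested genes of 3 lists, basket cell markers, processing genes and vesicular transporters; filled points passed an adjusted p of 0.05. The called genes are *Vip*, *Cnr1* and *Adarb2* above 0 and *Erbb4* below 0 among basket cell markers, and *Pcsk1* and *Pam* above 0 among processing genes; no transporter gene was called.

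Downstream of the receptors, which couple through Gq to phospholipase C, inositol trisphosphate receptors and protein kinase C, none of 15 listed genes was called by edgeR. At an unadjusted p under 0.05, 3 differed, of which *Itpr3* (0.53 on the log2 scale) and *Arrb1* (0.28) had positive values, and exons of *Itpr3* overlap those of other genes. Over all tested genes, 3590 (18.2%) had such a p, a share close to that of the list. DESeq2 called 1 of the 15 lower, and the fit with the run of library numbers called 3, all lower. These fits called more genes in all. Of 19684 tested genes, DESeq2 called 1734 without its beta prior and 1727 with it, and the run fit called 2205. In libraries 10 to 13 alone, 4 of the 15 were called, 1 higher and 3 lower, where 1922 of 18686 genes were called. The Gq subunit genes *Gnaq* and *Gna11* had differences of -0.11 and 0.089, with 95% intervals of -0.27 to 0.053 and -0.10 to 0.28. *Gna14* was present at 9.61 ± 1.31 and 4.84 ± 1.76 normalized counts (SD, n = 4 and 3 pools, log2 difference -0.97, adjusted p = 0.287). The median over the 15 genes was -0.10. Gastrin, the other ligand of the CCKBR receptor, is encoded by *Gast*, which reached at most 4 counts in any library, at or near the floor of 3 counts, and no fold change is given.

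Among the other SLC17 family and vesicular GABA transporters, 5 of 9 genes were tested and none was called by edgeR, where 1, *Slc17a7*, had an unadjusted p under 0.05 (18.2% of all tested genes did), and none was called in any of the 16 alternative fits. *Slc32a1*, which loads GABA into vesicles, had 4042 ± 553 and 3932 ± 815 normalized counts (SD, n = 4 and 3 pools, log2 difference -0.040), with 24.0% of its words shared with another gene. *Slc17a6* had a difference of -0.086. *Slc17a1* and *Slc17a4* had 0 counts in all 7 libraries, where 0 counts allow up to 3, or 0.0788 to 0.0921 CPM.

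The genes most alike in profile were found among 13448 tested genes with a mean of at least 100 normalized counts, by the root mean square difference of centred log2 values over the 7 libraries. For *Cck* they were *Bmp2*, *Sema3c* and *Aff1*, at distances of 0.064, 0.072 and 0.075 with log2 changes of 0.86, 0.80 and 0.86, while the distance of *Cck* from a flat profile was 0.43. For *Cckbr* they were *Zfp385b*, *Gmeb2* and *Aaed1* (0.045 to 0.050), and for *Slc17a8* they were *Gadd45a*, *Zfp599* and *Tma16* (0.041 to 0.048). None of the 6 genes alike to *Cckbr* or *Slc17a8* was called. The order is a description over 7 libraries that share their genotypes and runs.

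**Figure D5:**
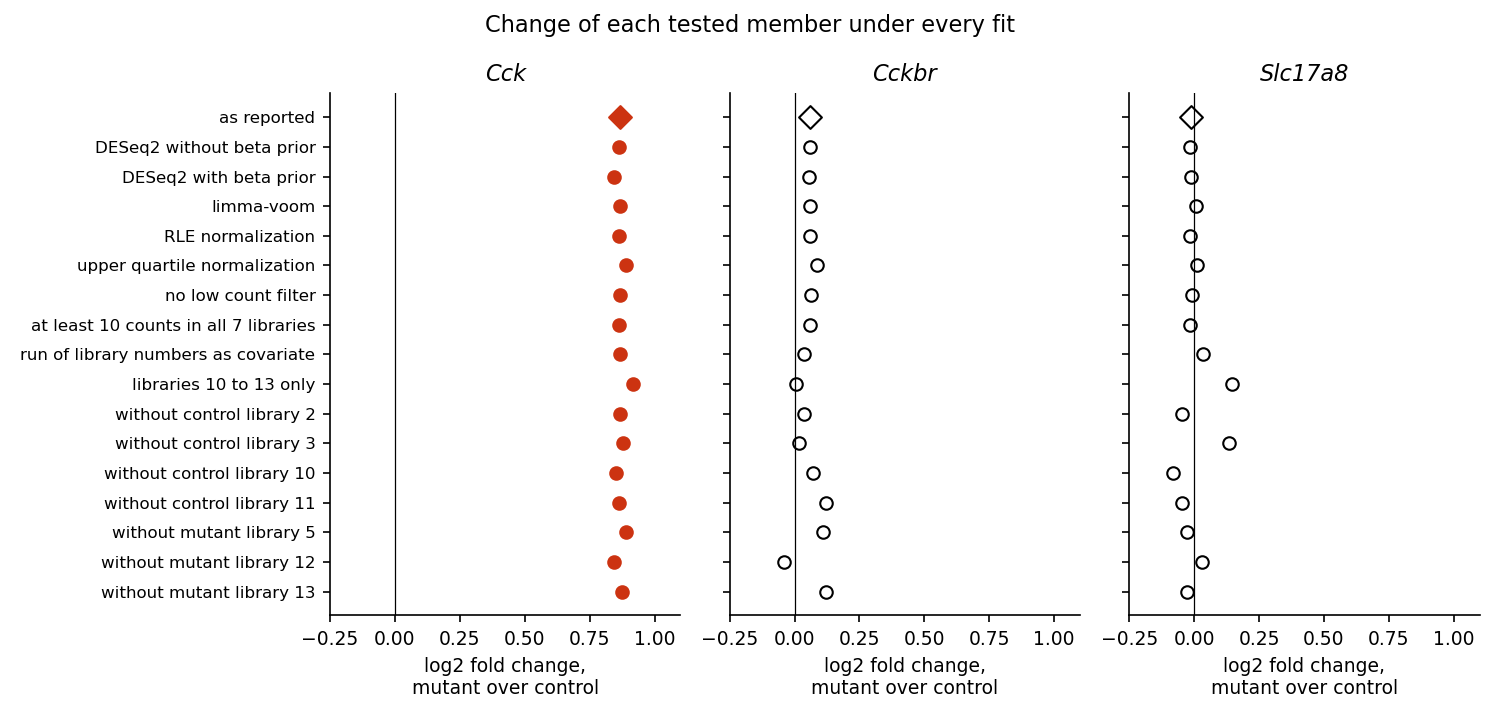
Log2 fold change of *Cck*, *Cckbr* and *Slc17a8* in the reported fit (diamond) and 16 alternatives (circles), filled where the adjusted p was 0.05 or less. *Cck* stays between 0.84 and 0.92 and is called throughout, while *Cckbr* and *Slc17a8* lie on both sides of 0 and are never called.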

How the data were processed

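Forebrain RNA of 7 pools was sequenced as 36 bp single ends. The authors trimmed reads with cutadapt 1.9.1, aligned them to the Ensembl release 84 transcriptome (GRCm38) with Bowtie2 2.2.9 and deposited RSEM 1.2.31 expected counts per gene, not normalized; RSEM divides reads shared between genes, and 32.9% to 36.0% of values were not whole. The authors' DESeq2 comparison (fold changes, p-values) was used for gene symbols only, and their other deposited file, exon starts and ends of the annotation, for positions and lengths. Strandedness was not given in the sources used here. Columns were grouped by the genotype in their names.

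Expected counts were rounded. Genes reaching 10 counts in 3 or more libraries were scaled by TMM and tested in R 4.3.3 with edgeR 4.0.16 (quasi-likelihood F-test, no covariate, Benjamini-Hochberg over all tested genes, threshold 0.05). The study fitted DESeq2, here (1.42.0) an alternative beside limma-voom (3.58.1), other normalizations, other filters, the run of library numbers and fits without each library. Standard errors came from dividing each log2 change, unsigned, by the root of its F, and normalized counts are relative to the mean effective library size. Replicates differed by more than sampling noise (chi-square per degree of freedom 9.36 to 65.9). The paper calls the controls littermates of the mutants, but nothing says whether pools are separate litters. Word sharing used the GENCODE M21 transcripts of the same build, and promoters came from RefSeq. The 0-count limit covers counting error only.

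Members, lists, motifs and tests were chosen with earlier results of these data known. Named are all 4 members, list genes, *Lhx6*, and the 3 genes nearest in profile to each tested member. The values of some list genes are not reported here.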

Additional observations from a re-analysis of the deposited data

How the results depend on the processing

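*Cck* kept its direction and call in all 16 alternatives (0.84 to 0.92 on the log2 scale; 0.84 to 0.89 with 1 library left out). *Cckbr* ran from -0.040 to 0.12 with 1 library left out and was negative without mutant library 12. *Slc17a8* became positive with limma-voom (0.0071), upper quartile normalization (0.012), the run of library numbers as covariate (0.033) and libraries 10 to 13 alone (0.15), and ran from -0.082 to 0.14 with 1 library left out. Neither gene was called in any fit, and the cause of the sign changes was not tested. Over all genes, 1734 and 1727 were called by DESeq2 without and with its beta prior, 2205 with the run as covariate, 1922 in libraries 10 to 13, and 302 (without mutant library 13) to 971 (without control library 3) with 1 library left out. Of the basket cell markers, 0 to 4 were called with 1 library left out, and 5 (3 higher, 2 lower) both with the run as covariate and in libraries 10 to 13. Processing genes numbered 4 with the run as covariate and 4 in libraries 10 to 13. Receptor signalling genes numbered 1 and 1 by DESeq2 without and with its beta prior, 3 with the run and 4 in libraries 10 to 13. The cause of these shifts was not tested beyond the smaller number of libraries in some fits. No paired analysis was possible because the count columns carry library numbers and not the replicate numbers of the sample labels. Depth limits *Cckar* and *Gast*, at no more than 10 and 4 counts in any library.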
